A study of Penicillium oxalicum with 24 samples.

Results

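In the filamentous fungus *Penicillium oxalicum*, 77 of the 9832 genes in the expression table had more transcript on cellulose when the regulator gene *clrB* was deleted and when the regulator gene *amyR* was deleted. They were chosen by their measured means: an RPKM (read number divided by transcript length and by the mapped reads of the library) of at least 10 in the Δ*clrB* mutant and in the Δ*amyR* mutant, at least 1.7 times the wild-type value in both, and at most 1.5 times the wild-type value in the Δ*creA* mutant. The levels in those 4 groups on cellulose selected the members, so they are described below without a test, and 4 genes annotated as enzymes acting on hemicellulose or its side chains were left out by name, of which 1, PDE_08238, met the criteria. The Δ*clrB*, Δ*amyR* and Δ*creA* single mutants, the double mutant Δ*creA*-Δ*clrB*, and a strain named Δ*creA-gpdA*(p)::*clrB*, were each sampled 4 h after transfer to 2% cellulose, and the wild-type strain 114-2 4 h after transfer to 2% cellulose, 2% glucose or medium without a carbon source. All mycelia had first grown for 22 h on 2% glucose in Vogel's medium at 30 °C, and a 2 h period without carbon came before the last transfer. For the wild type without carbon source the sample labels leave that 2 h step out, while the methods of the study include it. Each of the 8 groups had 3 biological replicates. In Δ*creA-gpdA*(p)::*clrB*, *creA* is deleted and *clrB* is overexpressed from a *gpdA* promoter of *Aspergillus nidulans*, so this strain and the double deletion differ in the presence and in the dose of *clrB*.

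ClrB is a zinc-binuclear-cluster activator that cellulolytic fungi need to switch on cellulase genes in the presence of cellulose. AmyR, of the same protein class, activates amylase genes, and CreA is the repressor through which glucose shuts off genes for other carbon sources. Fungi make arginine and threonine from glutamate and aspartate, and they degrade tyrosine and phenylalanine through homogentisate to fumarate and acetoacetate.

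Libraries held 6.95 to 8.58 uniquely mapped reads on genes, in units of 1e+06 reads. The deleted genes matched the labels. *clrB* (PDE_05999) had 3, 1 and 1 reads in Δ*clrB* and 3, 3 and 1 in Δ*creA*-Δ*clrB*, against 1954, 1930 and 2009 in the wild type on cellulose. *amyR* (PDE_03964) had 1, 0 and 0 reads in Δ*amyR*, and *creA* (PDE_03168) had at most 2 reads in any library of the 3 strains that lack it. *clrB* stood at 122, 116 and 92.8 RPKM in Δ*amyR*, against 108, 107 and 114 RPKM in the wild type on cellulose. *amyR* stood at 182, 138 and 124 RPKM in Δ*clrB*, against 214, 210 and 209 RPKM in the wild type on cellulose.

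The members held 5.11 to 10.1% of all reads in the Δ*clrB* libraries and 8.45 to 11.3% in the Δ*amyR* libraries, against 2.38 to 3.11% in the wild type on cellulose. Their median ratio to the wild type on cellulose was 2.37 in Δ*clrB* (1.71 to 34.1) and 2.96 in Δ*amyR* (1.701 to 18.3). Over all genes with adequate levels the median ratios were 0.883 in Δ*clrB* and 0.739 in Δ*amyR*. All 3 Δ*amyR* libraries lay above all 3 wild-type libraries for 76 of the 77 members, and all 3 Δ*clrB* libraries did so for 67. The choice of members favours these counts, and the share over all genes was not computed. The second Δ*clrB* replicate stood apart: it was the lowest of its group for 72 members and the highest for 0, with a median ratio to the wild-type mean of 1.53, against 2.70 and 2.97 in its companions. Without it the same criteria select 88 genes, among them all 77. The choice also rests on the scale: with RPKM rescaled by TMM factors, which take the bulk of genes as the common level, the criteria select 137 genes, of which 71 are members. At the edges of the criteria, PDE_08330 entered with a Δ*clrB* ratio of 1.71 and PDE_02574 missed with 1.67, while PDE_06414 entered with a Δ*amyR* ratio of 1.701 and PDE_05029 missed with 1.69. PDE_06089 had the highest admitted Δ*creA* ratio, 1.43, and PDE_06303 missed with 1.96. At the minimum level, the acid phosphatase gene PDE_01315 entered with 14.2 RPKM in Δ*clrB* and PDE_07122 missed with 9.91, while PDE_00929 entered with 12.3 RPKM in Δ*amyR* and PDE_04781 missed with 8.03. Member transcripts had a median length of 1176 nt, against 1140 nt over all identifiers, with a range of 261 to 21843 nt.

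**Figure D1:**
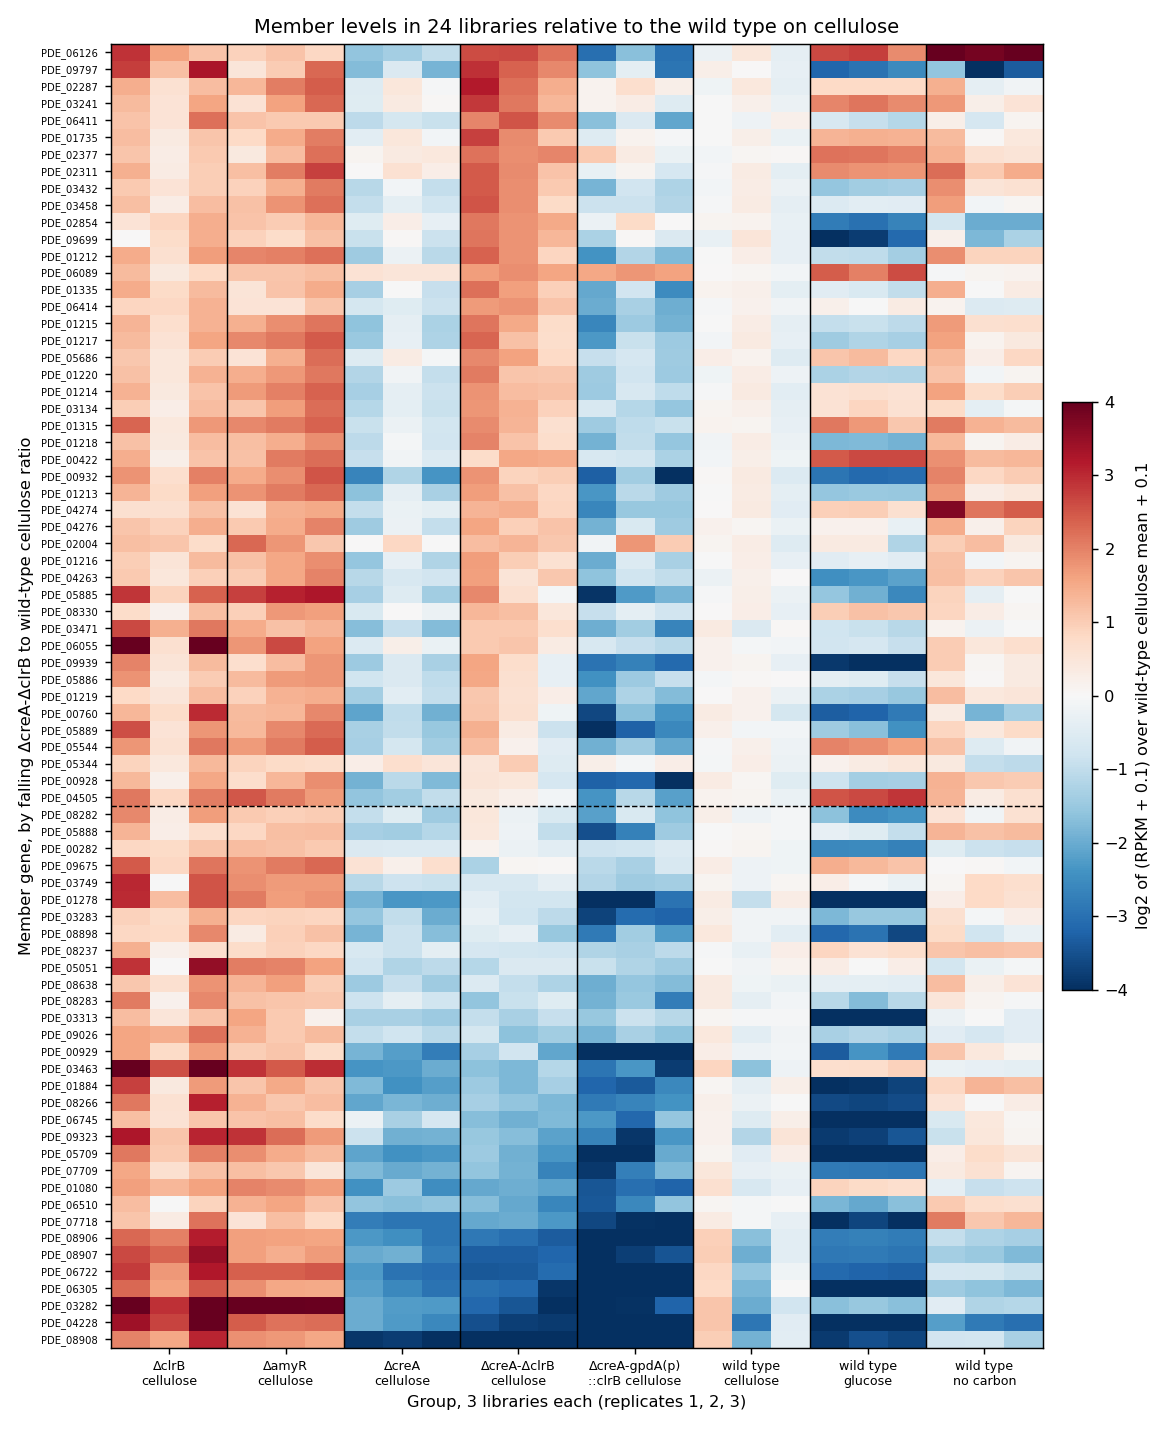
RPKM of the 77 members (rows) in 24 libraries (columns, 3 per group), as log2 of the value plus 0.1 over the wild-type mean on cellulose plus 0.1, with colours saturating at -4 and 4 and rows sorted by the ratio of Δ*creA*-Δ*clrB* to the wild type on cellulose. The 45 rows above the dashed line had a higher mean in Δ*creA*-Δ*clrB* than in the wild type on cellulose and the 32 below it a lower one.

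**Figure D2:**
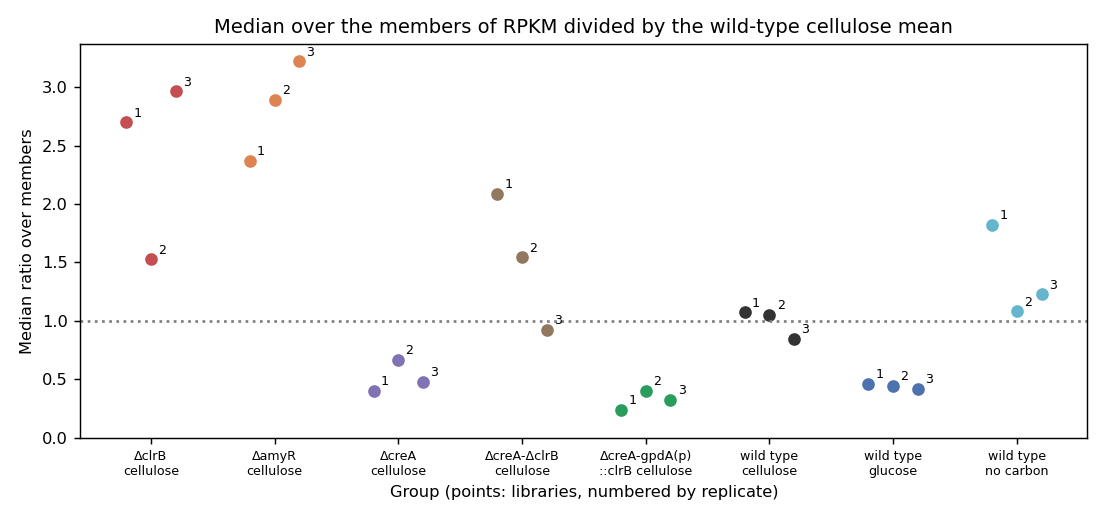
Median over the 77 members of RPKM divided by the wild-type mean on cellulose, 1 point per library, numbered by replicate. The Δ*clrB* libraries sit at 2.70, 1.53 and 2.97, those of the *clrB*-overexpressing strain between 0.240 and 0.403, and the first library without carbon source at 1.82, above its companions at 1.08 and 1.23.

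The other groups spread the members out. On the RPKM scale the Δ*creA* mean was below the wild-type mean on cellulose for 68 members, with a median ratio of 0.521, and the Δ*creA-gpdA*(p)::*clrB* mean was below it for 70, with a median ratio of 0.322. Over all 9176 genes with adequate levels those medians were 0.728 and 0.599, so part of each decrease was shared with the bulk of genes on this scale. The double deletion divided the members on the RPKM scale: its mean was at least 1.7 times the wild-type mean on cellulose for 38 and below it for 32. Over all genes its median ratio was 0.741, so the bulk of genes was lower too on this scale. With TMM scaling 49 members lay above the wild type on cellulose. The double-deletion libraries stood apart, with median ratios to the wild-type mean of 2.09, 1.54 and 0.924 and 10.04, 6.21 and 4.38% of reads on members, and the third was the lowest of its group for 59 members. All 3 of its libraries lay above all 3 Δ*creA* libraries for 52 members, where 21.5% of all genes did so, and below them for 9, where 22.7% did, in a contrast with a group that took part in the choice. Among the 38, the Δ*amyR* mean exceeded the Δ*clrB* mean for 30, and among the 32 the Δ*clrB* mean exceeded the Δ*amyR* mean for 24. In the wild type, the cellulose mean was above the glucose mean for 53 members and above the mean without carbon source for 22. The median ratios were 2.30 and 0.698 over the members, against 0.959 and 0.879 over all genes. The mean was highest in Δ*amyR* for 30 members, in Δ*clrB* for 28, in Δ*creA*-Δ*clrB* for 10, without carbon source for 5 and on glucose for 4.

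The first comparison that took no part in the choice of members set the double deletion against the *clrB*-overexpressing strain, both without *creA* and both on cellulose. Of the 77 members, 50 rose and 0 fell in Δ*creA*-Δ*clrB* relative to Δ*creA-gpdA*(p)::*clrB*, in a fit of all 24 libraries with edgeR's quasi-likelihood test (Benjamini-Hochberg adjusted p under 0.05 and an absolute log2 fold change above 1). Over all genes tested, 12.2% were called higher and 8.9% lower. The median log2 fold change was 1.93 over the members and 0.01 over all genes. All 3 double-deletion libraries lay above all 3 overexpression libraries for 62 members, while 31.3% of all genes did so. No member was lower at an unadjusted p under 0.05 (0 of 77), and DESeq2 and limma also called 0 lower. The members share these 6 libraries and vary together from library to library, so the count is not one of independent events. Other measures moved with this comparison. The 20 most abundant genes took 18.1 to 20.9% of reads in Δ*creA*-Δ*clrB*, against 26.4 to 32.5% in Δ*creA-gpdA*(p)::*clrB*, and *amyR* stood at 149, 123 and 80.0 RPKM in Δ*creA*-Δ*clrB*, against 21.7, 16.3 and 21.8 RPKM in Δ*creA-gpdA*(p)::*clrB*. The regulator genes *xlnR* (PDE_07674) and *clrB-2* (PDE_05883) were lower in the double deletion. *xlnR* had 47.3, 28.5 and 46.7 RPKM in Δ*creA*-Δ*clrB*, against 125, 119 and 64.1 RPKM in Δ*creA-gpdA*(p)::*clrB*. For *clrB-2* the values were 3.14, 2.55 and 4.62 RPKM, against 53.7, 62.1 and 72.9 RPKM. The part of these measures in the result was not tested.

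The second such comparison set glucose against no carbon source in the wild type. On glucose 44 members fell and 9 rose by the same test, where 23.1% of all genes were called lower and 19.5% higher. The median log2 fold change was -1.39 over the members and 0.05 over all genes. For 55 members all 3 glucose libraries lay below all 3 libraries without carbon source, as they did for 43.6% of all genes. The first library without carbon source was the highest of its group for 61 members. Without it, 37 members were called lower and 14 higher. Of the 50 members that rose in the double deletion, 30 were lower on glucose and 5 higher. Among the 27 members not called there, 14 were lower on glucose and 4 higher.

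**Figure D3:**
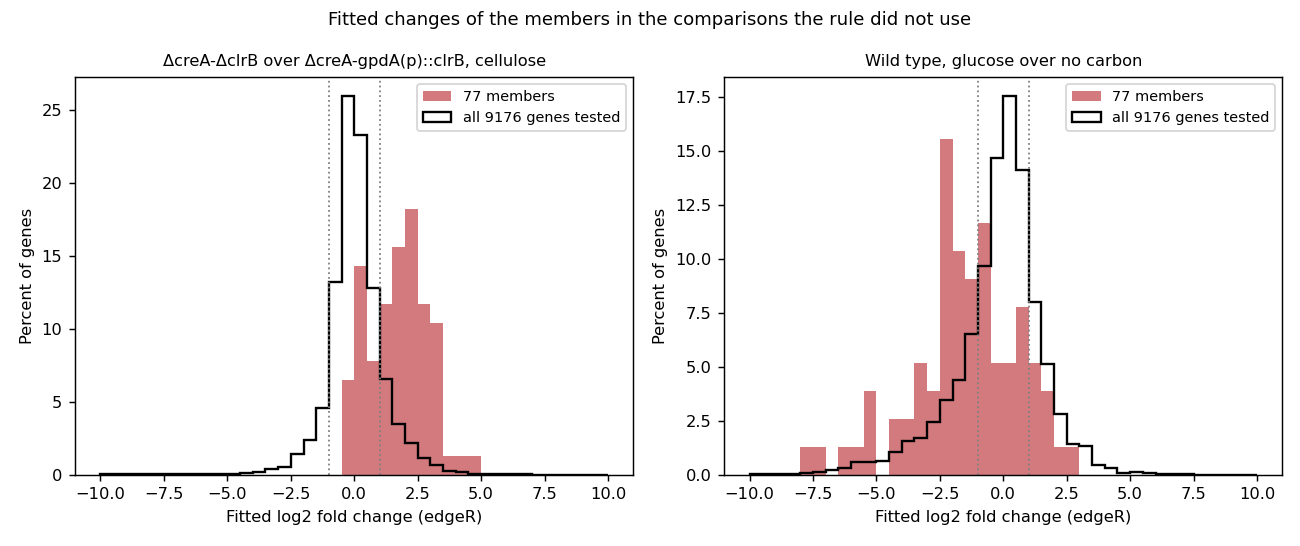
Percent of genes by fitted log2 fold change (edgeR, bins of 0.5) for the 77 members (filled) and all 9176 genes tested (outline), for Δ*creA*-Δ*clrB* over Δ*creA-gpdA*(p)::*clrB* on the left and glucose over no carbon source in the wild type on the right, with dotted lines at -1 and 1. The member medians are 1.93 on the left and -1.39 on the right, against 0.01 and 0.05 over all genes.

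Identifiers in this genome are numbered, and 22 members stood in 7 runs of consecutive identifiers: 1 run of 9, 1 of 3 and 5 of 2. Positions on the chromosomes were not used here, so a run means neighbouring identifiers only. The 3 identifiers on either side of each run gave 42 positions. Of these, 2 were the same identifier counted from 2 runs, with no gene in the table. Another 5 held members, all 5 called higher in Δ*creA*-Δ*clrB* against Δ*creA-gpdA*(p)::*clrB*. They were PDE_00932 and the pairs PDE_05885, PDE_05886 and PDE_05888, PDE_05889. These pairs flank each other and are already among the 22 members in runs. The other 35 flanking genes are non-members, and of the 32 that could be tested, 7 were called higher and 4 lower in the same comparison. Of the 22 members in runs, 17 were called higher and 0 lower. Among the 55 members outside runs, 33 were called higher and 0 lower. The flanking non-members did not meet the criteria, so the choice of members favours the gap to them.

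The longest run was PDE_01212 to PDE_01220. Its annotated products included a phosphopantetheine-binding protein of 21843 nt (PDE_01212), the type of carrier domain found in nonribosomal peptide synthetases, a branched-chain amino acid aminotransferase (PDE_01215), a heme-binding oxidoreductase (PDE_01216), fungal fatty acid synthase subunits alpha and beta (PDE_01217 and PDE_01220) and an ATP-driven membrane transport ATPase (PDE_01218). PDE_01213 matched the arginine-pathway enzyme N-acetyl-gamma-glutamyl-phosphate reductase / acetylglutamate kinase. Fatty acid synthase builds acyl chains, and the aminotransferase interconverts valine, leucine and isoleucine with their keto acids.

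The aminotransferase gene PDE_01215 was the most abundant of the run. It had 4345, 2692 and 4424 RPKM in Δ*clrB* and 4554, 6191 and 7521 RPKM in Δ*amyR*, against 1667, 2100 and 1324 RPKM in the wild type on cellulose. All libraries of both mutants were above all wild-type libraries. It had 551, 1328 and 705 RPKM in Δ*creA*. It reached 7421, 4874 and 2831 RPKM in Δ*creA*-Δ*clrB*, against 277, 625 and 454 RPKM in Δ*creA-gpdA*(p)::*clrB*, a log2 fold change of 3.18 (SE 0.45, adjusted p = 1.2e-05 by edgeR). The groups did not overlap. On glucose it had 868, 920 and 820 RPKM, against 5557, 2639 and 2685 RPKM without carbon source, a log2 fold change of -1.89 (SE 0.43, adjusted p = 0.00065 by edgeR).

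The synthetase-like gene PDE_01212 had 864, 585 and 306 RPKM in Δ*creA*-Δ*clrB*, against 32.5, 75.3 and 49.8 RPKM in Δ*creA-gpdA*(p)::*clrB*, a log2 fold change of 3.17 (SE 0.46). The alpha subunit gene PDE_01217 had 2450, 1111 and 800 RPKM in Δ*creA*-Δ*clrB*, against 101, 266 and 181 RPKM in Δ*creA-gpdA*(p)::*clrB*, a log2 fold change of 2.69 (SE 0.50). The beta subunit gene PDE_01220 had 2476, 1268 and 1217 RPKM in Δ*creA*-Δ*clrB*, against 218, 341 and 210 RPKM in Δ*creA-gpdA*(p)::*clrB*, a log2 fold change of 2.39 (SE 0.41). For both subunits every double-deletion library lay above every overexpression library. All 9 genes of the run rose in this comparison, with log2 fold changes of 2.01 to 3.18, and 7 of the 9 fell on glucose, PDE_01214 (-0.38) and PDE_01216 (-0.74) being the exceptions. The fall of PDE_01220 was not called without the first library without carbon source (-0.96). The first replicate was the highest double-deletion library for each of these named genes. The edge of the run was sharp on the low side: PDE_01211 had a mean of 66.1 RPKM in Δ*clrB* and 57.8 RPKM in Δ*amyR*, against 69.5 RPKM in the wild type on cellulose. On the high side, PDE_01221 averaged 2469 RPKM in Δ*clrB*, against 2157 RPKM in the wild type on cellulose, below the criteria, yet rose in Δ*creA*-Δ*clrB* against Δ*creA-gpdA*(p)::*clrB* by a log2 fold change of 1.26 (SE 0.19), and PDE_01222 rose by 1.35 (SE 0.22).

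**Figure D4:**
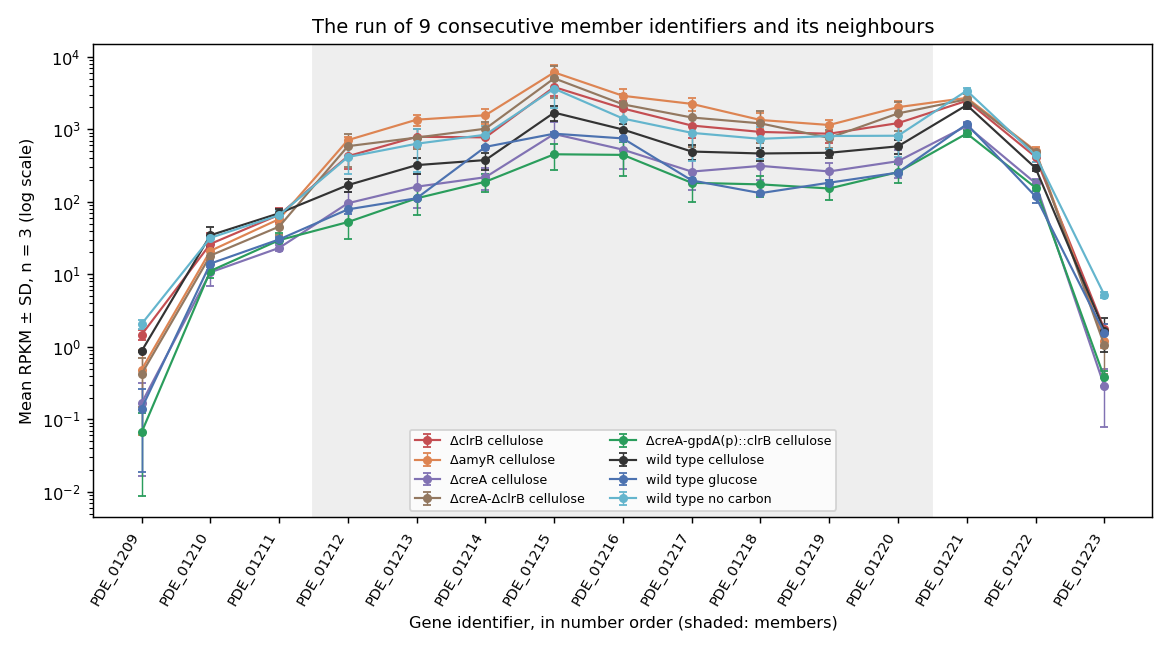
Mean RPKM (log scale, bars SD, n = 3, lower bars cut where they would pass 0) of the 9 consecutive members PDE_01212 to PDE_01220, shaded, and 3 identifiers on either side, 1 line per group. Within the shaded run the Δ*clrB*, Δ*amyR* and Δ*creA*-Δ*clrB* lines lie above the wild-type cellulose line and the lines of Δ*creA* and of the overexpressing strain below it, while at PDE_01211 the wild type on cellulose is the highest, at 69.5 RPKM.

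The run of 3, PDE_08906 to PDE_08908, matched the last enzymes of tyrosine breakdown: homogentisate 1,2-dioxygenase, which opens the aromatic ring, fumarylacetoacetase, which cuts the product to fumarate and acetoacetate, and maleylacetoacetate isomerase, which acts between them. The dioxygenase gene PDE_08906 had 1662, 1351 and 2964 RPKM in Δ*clrB* and 1056, 1032 and 1011 RPKM in Δ*amyR*, against 654, 105 and 248 RPKM in the wild type on cellulose. Every mutant library lay above every wild-type library, and the wild-type libraries themselves differed widely. PDE_08907, the fumarylacetoacetase gene, reached 3379, 2718 and 6150 RPKM in Δ*clrB* and 1712, 1488 and 1793 RPKM in Δ*amyR*, against 1086, 142 and 411 RPKM in the wild type on cellulose. PDE_08908, the isomerase gene, had 177, 131 and 373 RPKM in Δ*clrB* and 158, 149 and 129 RPKM in Δ*amyR*, against 88.8, 11.8 and 33.4 RPKM in the wild type on cellulose. For all 3 genes the second wild-type cellulose library was the lowest and the first the highest.

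Unlike the run of 9, these genes were low in every strain without *creA*. The dioxygenase gene had 68.3, 61.2 and 44.1 RPKM in Δ*creA* and 46.4, 41.2 and 33.5 RPKM in Δ*creA*-Δ*clrB*, all below the lowest wild-type library on cellulose. It was lower still in Δ*creA-gpdA*(p)::*clrB*, at 5.81, 8.27 and 13.2 RPKM, and the double deletion exceeded this strain by a log2 fold change of 1.85 (SE 0.47, adjusted p = 0.0031 by edgeR). Fumarylacetoacetase had 55.8, 55.8 and 60.3 RPKM in Δ*creA*-Δ*clrB*, against 21.7, 39.8 and 50.05 RPKM in Δ*creA-gpdA*(p)::*clrB* (log2 fold change 0.32, SE 0.48, adjusted p = 0.62 by edgeR). The isomerase was near the limit of detection in both strains, at 0.184 to 0.760 RPKM in Δ*creA*-Δ*clrB* and 0.345 to 0.513 RPKM in Δ*creA-gpdA*(p)::*clrB*. On glucose all 3 fell relative to no carbon source, with log2 fold changes of -1.39, -1.15 and -2.58 (SE 0.45, 0.48 and 0.58). The fall of PDE_08907 missed the threshold in 5 of 14 alternative settings. The flanking gene PDE_08904, which matched 4-hydroxyphenylpyruvate dioxygenase, the enzyme that makes homogentisate, averaged 14.3 RPKM in Δ*clrB* and 30.5 RPKM in Δ*amyR*, against 14.7 RPKM in the wild type on cellulose. A second gene with this match, PDE_09761, averaged 4510 RPKM in Δ*clrB* and 6888 RPKM in Δ*amyR*, against 2704 RPKM in the wild type on cellulose, below the criteria in Δ*clrB*, and rose in Δ*creA*-Δ*clrB* against Δ*creA-gpdA*(p)::*clrB* by a log2 fold change of 1.75.

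PDE_04228 matched 3-hydroxyphenylacetate 6-hydroxylase, an enzyme that makes homogentisate from phenylacetate derivatives in *Aspergillus nidulans*. It had 2574, 1601 and 4425 RPKM in Δ*clrB* and 1325, 1091 and 1151 RPKM in Δ*amyR*, against 523, 32.6 and 179 RPKM in the wild type on cellulose. Its ratio of means, 11.7 in Δ*clrB* and 4.86 in Δ*amyR*, was among the 8 largest in both. In the strains without *creA* it had 62.1, 51.0 and 41.2 RPKM in Δ*creA*, 21.4, 18.1 and 17.1 RPKM in the double deletion and 4.71, 3.42 and 4.01 RPKM in the overexpressing strain. The double deletion exceeded the overexpressing strain by a log2 fold change of 1.93 (SE 0.63, adjusted p = 0.017 by edgeR), a call lost when the second library of the overexpressing strain was left out. PDE_08638, matching aromatic amino acid aminotransferase I, which starts the breakdown of tyrosine and phenylalanine, had 249, 183 and 413 RPKM in Δ*clrB* and 303, 372 and 237 RPKM in Δ*amyR*, against 151, 106 and 98.9 RPKM in the wild type on cellulose. PDE_08266 matched 3-oxoacid CoA-transferase, which activates acetoacetate, and averaged 657 RPKM in Δ*clrB* and 325 RPKM in Δ*amyR*, against 137 RPKM in the wild type on cellulose.

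**Figure D5:**
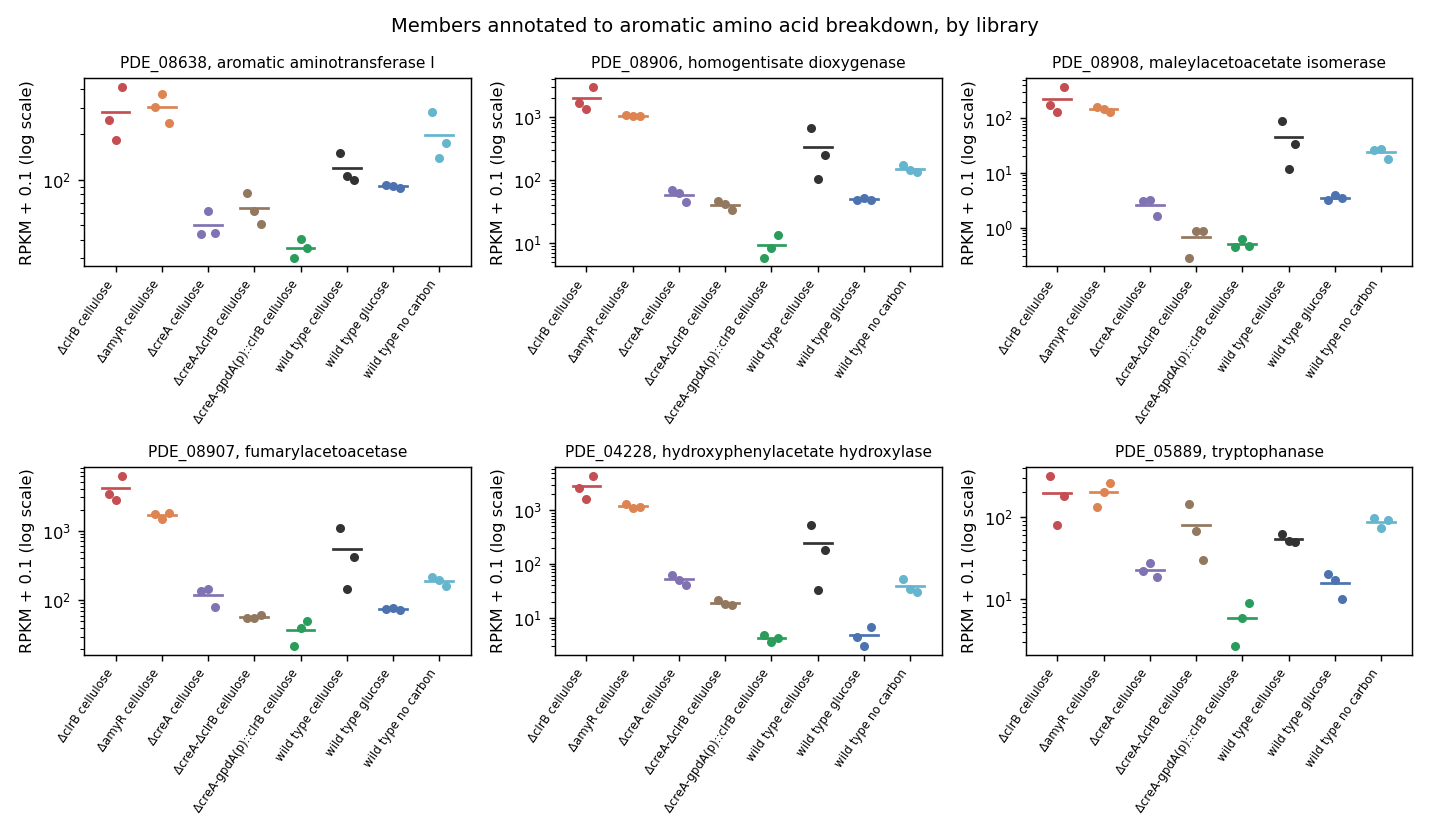
RPKM plus 0.1 (log scale) of 6 members annotated to aromatic amino acid breakdown in each library, with a bar at the group mean (n = 3). The homogentisate genes and PDE_04228 are high in Δ*clrB* and Δ*amyR*, spread widely in the wild type on cellulose and are low in the 3 strains without *creA*, whereas tryptophanase averages 80.9 RPKM in Δ*creA*-Δ*clrB*, above its wild-type mean of 54.2 RPKM on cellulose.

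Across the list for aromatic amino acid breakdown, 13 annotated genes were tested, of which 7 are members. 4 members rose and 0 fell in Δ*creA*-Δ*clrB* against Δ*creA-gpdA*(p)::*clrB*, and of the 6 other genes 3 rose and 2 fell. The list median was 1.17, beside 0.01 over all genes. It was 1.67 over the 7 members, which the choice of members favours, and 0.89 over the 6 other genes. On glucose 5 of its members fell and 1 rose, the tyrosinase gene PDE_04505, which had 55.1, 61.3 and 70.9 RPKM on glucose, against 24.9, 12.2 and 15.2 RPKM without carbon source (log2 fold change 2.02, SE 0.35, adjusted p = 3.2e-05 by edgeR). The annotations used here cover only 957 genes that the study called as changed, so every list is a selection and not a full pathway.

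The runs of 2 held further heme enzymes and amino acid enzymes. The pair PDE_05885 and PDE_05886, both heme-binding, and the pair PDE_05888 and PDE_05889 were separated by a single identifier. PDE_05889 matched tryptophanase, which cleaves tryptophan to indole in bacteria. The nearest of them to *clrB-2* (PDE_05883), a second gene named after *clrB*, was PDE_05885, 2 numbers away. Tryptophanase had 321, 79.7 and 183 RPKM in Δ*clrB* and 134, 204 and 262 RPKM in Δ*amyR*, against 61.7, 50.7 and 50.1 RPKM in the wild type on cellulose. It reached 145, 67.3 and 29.9 RPKM in Δ*creA*-Δ*clrB*, against 2.55, 5.71 and 8.94 RPKM in Δ*creA-gpdA*(p)::*clrB*, a log2 fold change of 3.54 (SE 0.56, adjusted p = 3.6e-05 by edgeR). All 4 genes rose in this comparison (the call of PDE_05888 was lost in a fit of the compared groups alone), while *clrB-2* fell, with a log2 fold change of -4.49 (SE 0.19). PDE_05885 had the second largest Δ*amyR* ratio of all members, 8.16, with 502, 634 and 708 RPKM in Δ*amyR*, against 73.1, 88.3 and 64.4 RPKM in the wild type on cellulose.

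PDE_00928, matching cystathionine gamma-lyase, which releases cysteine from cystathionine, rose in Δ*creA*-Δ*clrB* to 244, 233 and 107 RPKM, against 18.2, 19.4 and 10.3 RPKM in Δ*creA-gpdA*(p)::*clrB* (log2 fold change 3.31, SE 0.43, adjusted p = 3.7e-06 by edgeR). Its neighbour PDE_00929, without annotation, had 2.49, 3.71 and 1.41 RPKM in Δ*creA*-Δ*clrB*, against 0, 0 and 0.267 RPKM in Δ*creA-gpdA*(p)::*clrB*, 27 reads against 1 in all, a ratio of 29.1 per library total with an exact 95% interval of 4.80 to 1191 that covers counting error only. PDE_00932, a heme-binding oxidoreductase with 2 identifiers between, rose by a log2 fold change of 3.42 (SE 0.61) in the same comparison. In the pair PDE_03282 and PDE_03283, the members went apart. PDE_03282, matching glycerate dehydrogenase, had 870, 379 and 1529 RPKM in Δ*clrB* and 1147, 824 and 783 RPKM in Δ*amyR*, against 108, 12.7 and 29.7 RPKM in the wild type on cellulose. It had 12.5, 10.5 and 10.3 RPKM in Δ*creA*, 5.57, 4.62 and 2.97 RPKM in Δ*creA*-Δ*clrB* and 2.72, 3.15 and 5.38 RPKM in Δ*creA-gpdA*(p)::*clrB*, all below its lowest wild-type library on cellulose. PDE_03283, an N-acetyltransferase by annotation, had 51.9, 36.1 and 30.7 RPKM in Δ*creA*-Δ*clrB*, against 4.76, 7.35 and 6.73 RPKM in Δ*creA-gpdA*(p)::*clrB* (log2 fold change 2.36, SE 0.32). The last pair, PDE_08282 and PDE_08283, averaged 23.6 and 19.3 RPKM in Δ*clrB*, and neither passed the test in this comparison (log2 fold changes 0.99 and 0.75, SE 0.44 and 0.55). PDE_08237 stands next to PDE_08238, one of the genes left out by name, and averaged 17.3 RPKM in Δ*clrB* and 17.01 RPKM in Δ*amyR*, against 9.50 RPKM in the wild type on cellulose.

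Members of amino acid synthesis were called higher in the double deletion than in the overexpressing strain. The other listed genes of the same pathways were not. Members were chosen for higher levels without *clrB*, and the other listed genes did not meet the criteria. The choice therefore favours this split, here and in the other lists. In arginine synthesis, whose first steps acetylate and phosphorylate glutamate, the members were PDE_03134 (amino-acid N-acetyltransferase), PDE_03458 and PDE_01213 (both matching the reductase and kinase) and PDE_03241 (acetylornithine aminotransferase). All 4 rose in Δ*creA*-Δ*clrB* against Δ*creA-gpdA*(p)::*clrB*. PDE_03458 had 1573, 1000 and 468 RPKM in Δ*creA*-Δ*clrB*, against 151, 152 and 120 RPKM in Δ*creA-gpdA*(p)::*clrB* (log2 fold change 2.57, SE 0.48, adjusted p = 0.00019 by edgeR). PDE_03134 had 108, 81.7 and 59.9 RPKM in Δ*creA*-Δ*clrB*, against 19.9, 14.1 and 10.7 RPKM in Δ*creA-gpdA*(p)::*clrB* (log2 fold change 2.20, SE 0.37). The 4 listed genes that are not members, which act in the later steps from ornithine to arginine or supply carbamoyl phosphate, did otherwise: 0 rose and 1 fell, with a median log2 fold change of -0.62, and on glucose all 4 rose against no carbon source, while 1 of the 4 members rose and 2 fell. Of these calls, the rise of PDE_03241 was lost in 3 alternative settings and the fall of PDE_03458 in 5.

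In the branch from aspartate to threonine, the members were PDE_02311 (aspartate kinase, the entry step), PDE_02287 (homoserine kinase) and PDE_01735 (threonine synthase, the last step). PDE_02287 had 156 RPKM on average in Δ*clrB* and 285 RPKM in Δ*amyR*, against 70.9 RPKM in the wild type on cellulose. It had 644, 328 and 195 RPKM in Δ*creA*-Δ*clrB*, against 78.9, 112 and 82.8 RPKM in Δ*creA-gpdA*(p)::*clrB* (log2 fold change 1.804, SE 0.47, adjusted p = 0.0039 by edgeR). PDE_01735 and PDE_02311 rose by log2 fold changes of 1.88 (SE 0.42) and 1.90 (SE 0.40). These genes did not follow the glucose pattern of most members: PDE_01735 had 260, 271 and 270 RPKM on glucose, against 246, 105 and 135 RPKM without carbon source, and none of the 3 passed that test (log2 fold changes 0.89, 0.42 and 0.32 for PDE_01735, PDE_02287 and PDE_02311). The list for threonine and methionine synthesis also held the member PDE_00928 and 4 genes that are not members, of which 0 rose and 1 fell in Δ*creA*-Δ*clrB* against Δ*creA-gpdA*(p)::*clrB*, with a median log2 fold change of -0.26. The one that fell, PDE_09141, matched O-acetylhomoserine sulfhydrylase (-1.23).

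7 members fell under the annotation terms used for heme or iron oxidoreductases, the class of cytochrome P450 enzymes and ring-opening dioxygenases, and all 7 rose in Δ*creA*-Δ*clrB* against Δ*creA-gpdA*(p)::*clrB*, where 4 of the 24 other listed genes rose and 7 fell. Among the other listed genes that fell were PDE_05633 (-8.24) and PDE_01261 (-5.80), annotated as cellulose monooxygenases and held through the term monooxygenase. On glucose 5 of the 7 members fell and 0 rose. The ferrous iron-binding oxidoreductase gene PDE_03463 was not matched by those terms: it was not called in the double deletion (1.15, SE 0.65) and rose on glucose (1.32), a call lost with limma on log2(RPKM + 0.1). Among the 7 listed members, PDE_04274 averaged 30.8 RPKM in Δ*clrB* and 40.5 RPKM in Δ*amyR*, against 130 RPKM in the wild type without carbon source, the highest mean of its 8 groups. Among hydrolases of phosphate, nucleic acid and protein, 3 of 4 members rose in the double deletion, among them the transport ATPase gene PDE_01218, held through the term triphosphatase. Of the 22 other listed genes 4 rose and 6 fell, with a median log2 fold change of -0.04. The acid phosphatase gene PDE_05544, 1 of the 3 members that rose, also rose on glucose, with 237, 213 and 182 RPKM, against 135, 41.3 and 53.1 RPKM without carbon source (log2 fold change 1.63, SE 0.47, adjusted p = 0.0043 by edgeR). Of the carbohydrate-active enzymes, 2 of 37 listed genes (5.41%) are members, beside 7.42% of all annotated genes, a beta-galactosidase (PDE_00282) and a glucanase (PDE_02004). Neither passed the test in the double deletion against the overexpressing strain. On glucose PDE_00282 fell (-1.68) and PDE_02004 was not called (-0.72). The 4 genes left out by name are not among the 37, since the terms used did not match them. In the double deletion against the overexpressing strain, 17 of the 35 other listed genes fell and 3 rose. The 2 members matched by the terms transporter or permease, PDE_03313 and the amino acid transporter PDE_09323, and the transcription factor PDE_09026 did not pass the test in this comparison (log2 fold changes -0.21, 0.84 and 0.09), and both transporters fell on glucose (-5.10 and -3.58). Outside those terms, the transport ATPase genes PDE_01218 and PDE_05051 had log2 fold changes of 2.497 (called) and 0.12 (not called) in the double deletion.

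The most abundant member in Δ*clrB* was PDE_06722, an uncharacterized gene of 315 nt. It had 10471, 5040 and 13865 RPKM in Δ*clrB* and 8029, 7884 and 8442 RPKM in Δ*amyR*, against 2679, 518 and 1350 RPKM in the wild type on cellulose. Like the homogentisate genes it was low without *creA*, with 313, 195 and 185 RPKM in Δ*creA* and 145, 147 and 181 RPKM in Δ*creA*-Δ*clrB*, against 36.1, 29.2 and 25.4 RPKM in Δ*creA-gpdA*(p)::*clrB*. The double deletion still exceeded the overexpressing strain by a log2 fold change of 2.08 (SE 0.43, adjusted p = 0.00051 by edgeR). PDE_01335, next in abundance, took the other course, with 9872, 6826 and 4236 RPKM in Δ*creA*-Δ*clrB*, against 519, 1264 and 382 RPKM in Δ*creA-gpdA*(p)::*clrB* (log2 fold change 2.96, SE 0.51). PDE_02854 had its highest mean of all 8 groups in the double deletion, 7350 RPKM, against 2484 RPKM in Δ*creA-gpdA*(p)::*clrB* and 2084 RPKM in the wild type on cellulose.

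The largest Δ*clrB* ratio, 34.1 for the endoribonuclease-annotated PDE_06055, rested on unequal libraries, at 812, 16.1 and 232 RPKM in Δ*clrB*, against 11.7, 9.71 and 9.60 RPKM in the wild type on cellulose. PDE_03282 followed with 18.5, and also had the largest Δ*amyR* ratio, 18.3. PDE_03463, an iron-binding oxidoreductase, had ratios of 16.6 and 6.93 in Δ*clrB* and Δ*amyR*, and PDE_05051, a cation-transporting ATPase, had 6.66 in Δ*clrB*. In both the second Δ*clrB* library was again the lowest, 63.9 RPKM against 199 and 264 RPKM in its companions for PDE_03463.

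Among members called in the double deletion, the largest fitted change was that of PDE_06126, an uncharacterized gene of 261 nt, with 71.5, 73.8 and 52.9 RPKM in Δ*creA*-Δ*clrB*, against 1.35, 3.57 and 1.39 RPKM in Δ*creA-gpdA*(p)::*clrB* (log2 fold change 4.64, SE 0.49, adjusted p = 2.8e-07 by edgeR). Tryptophanase, PDE_09939 (3.48, SE 0.47) and PDE_09797 (3.43, SE 0.69) were also among the largest, in an order that lies within their standard errors, and PDE_00929, with 1 read in the overexpressing strain, has no firm place in it. On glucose the largest falls were those of PDE_06305 and PDE_01278. PDE_06305, uncharacterized, had 0.0746, 0.0797 and 0.225 RPKM on glucose, against 40.5, 35.9 and 31.03 RPKM without carbon source (log2 fold change -7.82, SE 0.82). PDE_01278, matching alcohol dehydrogenase, had 0.333, 1.54 and 1.11 RPKM on glucose, against 162, 235 and 207 RPKM without carbon source (log2 fold change -7.44, SE 0.56). The next 3 were PDE_05709 (-6.33, SE 0.65), annotated as a carbon-nitrogen ligase that takes its nitrogen from glutamine, PDE_06745 (-5.68, SE 0.39), a flavin-dependent oxidoreductase by annotation, and the uncharacterized PDE_01884 (-5.48, SE 0.57). The alcohol dehydrogenase gene had 1076, 314 and 778 RPKM in Δ*clrB* and 570, 432 and 466 RPKM in Δ*amyR*, against 170, 69.9 and 165 RPKM in the wild type on cellulose.

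The 9 members that rose on glucose were PDE_06089, tyrosinase, PDE_01080, PDE_05544, PDE_09675, PDE_02377, PDE_03463, PDE_00422 and the acetylornithine aminotransferase gene PDE_03241. PDE_06089 changed most, with 852, 634 and 965 RPKM on glucose, against 153, 169 and 173 RPKM without carbon source (log2 fold change 2.52, SE 0.18, adjusted p = 1.6e-10 by edgeR). It did not pass the test in the first comparison, with 499, 568 and 468 RPKM in Δ*creA*-Δ*clrB*, against 463, 536 and 477 RPKM in Δ*creA-gpdA*(p)::*clrB* (log2 fold change -0.25, SE 0.17). PDE_01080, matching formate dehydrogenase, which oxidizes formate to carbon dioxide, had 1186, 1082 and 1022 RPKM on glucose, against 501, 340 and 363 RPKM without carbon source (log2 fold change 1.64, SE 0.31). It had 1972, 1614 and 1951 RPKM in Δ*clrB* and 2549, 2354 and 2020 RPKM in Δ*amyR*, against 1005, 406 and 506 RPKM in the wild type on cellulose.

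The 17 members that no list, run or ranking picked out were mostly without a named product. Their ratio to the wild type on cellulose ran over 1.73 to 4.95 in Δ*clrB* and 1.74 to 3.73 in Δ*amyR*. Of these, 10 rose and 0 fell in Δ*creA*-Δ*clrB* against Δ*creA-gpdA*(p)::*clrB*, with log2 fold changes of -0.03 to 3.15. On glucose 9 fell and 1 rose relative to no carbon source, with log2 fold changes of -5.33 to 1.28. The lowest and highest values in the first comparison belonged to PDE_06510 and PDE_06411, and on glucose to PDE_07718, an N-acetyltransferase by annotation, and PDE_00422.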

How the data were processed

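RNA was sequenced by the authors on an Illumina platform (base calling with CASAVA 1.8, per the labels) from 24 mycelial samples, 3 biological replicates of 8 groups. They mapped the reads with SOAP2 (version not given in the sources used here) to the predicted transcripts of strain 114-2. The deposited counts are the authors' uniquely mapped reads per gene, not normalized. From those counts the authors computed the deposited RPKM, dividing by transcript length and by the library's sum of unique reads, and the same formula returned every value (largest relative deviation 5.1e-15). Cells marked with a dash (12619) were read as 0 reads. Replicates were not pooled, and 0 columns of sample values were unassigned.

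Members and lists were chosen with earlier results of these data known. Members follow the criteria on mean RPKM given above. Contrasts that involve the 4 groups used by those criteria are described without a test. The other 2 contrasts were fitted on the counts with edgeR 4.0.16 in R 4.3.3 (TMM scaling, quasi-likelihood F test, all 24 libraries, 8 group means), over the 9176 genes that reached 1 RPKM in 3 or more libraries, and p was adjusted over all of them by the Benjamini-Hochberg procedure. All 77 members passed this filter, which their minimum mean of 10 RPKM in 2 groups favours. A gene was called at an adjusted p under 0.05 with an absolute log2 fold change above 1. Replicates varied by 19.9% (coefficient of variation from the common dispersion, 0.0395). In counts simulated at this dispersion, edgeR called all 100 changes of 4-fold in both contrasts. Of 100 changes of 2-fold, which is the threshold itself, it called 51 in the first contrast and 61 in the second. The members varied more than the simulated counts (median 36.9% in Δ*creA-gpdA*(p)::*clrB*), so the simulation cannot show how the fit handles such a spread. Lists were made by keywords in the descriptions, KEGG matches and GO terms of the study's supplementary tables. Genes named are members in runs, members held by a list, the 8 largest ratios of Δ*clrB* and of Δ*amyR* to wild type, the 5 most abundant in Δ*clrB*, the 5 largest changes per direction in each tested contrast, up to 6 members that go against the majority, those next to a criterion, and the regulators. PDE_08266, PDE_08237, PDE_00422, PDE_06510, PDE_06411, PDE_07718, the non-members PDE_09761, PDE_09141 and PDE_08238 and the flanking genes named were added after their values were seen. Alternatives were DESeq2 1.42.0, limma 3.58.1 on log2(RPKM + 1) and log2(RPKM + 0.1), other scalings, no filter, fewer groups, a replicate block and each library left out. Python 3.11.15 with pandas 2.3.3, numpy 2.4.6 and matplotlib 3.10.9 made the tables and figures. No genome or protein sequence of strain 114-2 was used here.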

Additional observations from a re-analysis of the deposited data

Results flagged for a closer look

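For 8 members, every Δ*clrB* library lay above every wild-type library on cellulose, as the choice of members favours, while every Δ*creA*-Δ*clrB* library lay below every Δ*creA* library. The first of these directions, and a ceiling on the Δ*creA* level, were part of the choice of members, so the contrast is a description, and the difference was not tested. The log2 ratio of mean RPKM, Δ*creA*-Δ*clrB* over Δ*creA*, was -2.16 for the isomerase gene PDE_08908, -1.45 for PDE_04228, -1.34 for PDE_03282, -1.11 for PDE_06745, a flavin-dependent oxidoreductase by annotation, -1.06 for the fumarylacetoacetase gene PDE_08907, -0.76 for PDE_09675, -0.75 for PDE_06305 and -0.55 for PDE_06722. Over all genes, 22.7% had every Δ*creA*-Δ*clrB* library below every Δ*creA* library and 21.5% above, and 52 other members were above.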

How the results depend on the processing

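Across the alternatives, 50 to 58 members were called higher and 0 lower in Δ*creA*-Δ*clrB* against Δ*creA-gpdA*(p)::*clrB*, and 47 of the 50 kept their call in every one. On glucose against no carbon source 37 to 46 were called lower, 44 of the 53 calls were kept in every one (37 lower and 7 higher), and leaving out 1 library gave 8 to 14 higher, the 14 without the first library without carbon source. Same-numbered libraries of the groups compared did not deviate together (correlations of -0.48, 0.02 and -0.31 in the first comparison), so they share only a number, and with the replicate block the counts were 50 and 0, and 43 lower and 9 higher on glucose. The number of members was 116 at a fold of 1.5, 48 at a fold of 2, 137 with RPKM rescaled by TMM factors and 69 to 92 with 1 library left out. Library totals in place of TMM moved the median of all genes to 0.30 in the first comparison and the calls over all genes to 1670 higher and 534 lower, in place of 1115 and 817, and to -0.15 in the second, with 1440 higher and 2427 lower in place of 1785 and 2123.

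The sign of some small changes that were not called turned, and the cause was not tested. With library totals, limma on log2(RPKM + 1) and limma on log2(RPKM + 0.1), in this order, the first comparison gave 0.14, 0.32 and 0.33 for PDE_02004, 0.23, 0.19 and 0.24 for PDE_03282, 0.096, 0.11 and 0.11 for PDE_03313, and 0.056, 0.054 and 0.054 for PDE_06089. With 1 library left out it ran over -0.56 to 0.40 for PDE_02004, -0.31 to 0.27 for PDE_03282, -0.0074 to 0.27 for PDE_05051, -0.17 to 0.59 for PDE_06745, -0.086 to 0.55 for PDE_08908 and -0.28 to 0.30 for PDE_09026. On glucose against no carbon source it ran over -0.029 to 0.62 for PDE_01315 and -0.54 to 1.01 for PDE_09797, which both limma fits put at 0.019 and 0.066.

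Limits: groups have 3 libraries, so a gene's rank rests on few values. Members vary together between libraries of a group, and the median coefficient of variation of the members in Δ*clrB* was 38.9%, against 17.4% over all genes. RPKM moves with the share of reads taken by the most abundant genes. Genes under 1 RPKM, such as PDE_08908 in the double deletion and in the overexpressing strain, are too shallow for small changes to be detectable. Without strand or position, overlapping neighbours in a run cannot be told apart.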
